A study of Oryza sativa with 6 samples.

Results

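The 10 rice genes described here serve the acquisition of soil iron: the basic helix-loop-helix (bHLH) regulators IRO2 and IRO3, the nicotianamine synthases NAS1, NAS2 and NAS3, the aminotransferase NAAT1, the reductase DMAS1, the efflux transporter TOM1, the uptake transporter YSL15 and the ferrous iron transporter IRT1. They were taken as 10 listed loci, all of which are among the 56962 genes of the deposited table. Names were assigned through that list. The table itself describes the 3 synthase loci as nicotianamine synthases and gives the others only a domain, which by itself does not identify them.

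Grasses take up iron by releasing phytosiderophores, small organic acids of the mugineic acid family, which hold ferric iron in solution and are carried back into the root with it. Nicotianamine synthase joins molecules of S-adenosylmethionine into nicotianamine, the aminotransferase and then the reductase turn nicotianamine into deoxymugineic acid, TOM1 exports it, and YSL15 imports the iron complex. Rice also imports ferrous iron directly, through IRT1. IRO2 is known to activate the phytosiderophore genes when iron is short, and IRO3 is known as a negative regulator of the same response.

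RNA was sequenced from the terminal 0.5 cm of roots of Oryza sativa seedlings, 6 days after sprouting and grown at 25°C. The wild type J10 and the mutant lad, also called sr1, were each represented by 3 libraries, and no treatment or iron supply is named for either. Cell division and the tracheary elements of the xylem are the processes that the series title ties to the mutated gene. The labels do not name the mutated locus or say whether libraries came from separate plants, so p-values measure only the spread between these samples. The comparison asks whether transcript levels of the iron acquisition genes differ between wild type and mutant root tips.

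Libraries held 16405022 to 20693114 counts. Levels are given as CPM, counts scaled to a common library size, with TMM, a correction for library composition, as mean ± SD with n = 3 libraries per genotype. Of 8 loci listed as markers of the root meristem and quiescent centre all 8 were detected, with a summed level of 263 to 272 CPM in J10 and 215 to 289.8 CPM in lad, where 1 rose and 3 fell. The 6 loci listed for differentiated root tissue (exodermis, endodermis and root hairs) summed to 245 to 457 CPM in J10 and 757 to 960.0 CPM in lad, with 3 higher and 2 lower. Genes described as photosynthetic, used as a sign of shoot tissue, summed to 2.54 to 3.29 CPM in J10 and 3.89 to 4.46 CPM in lad, and LOC_Os12g17600 among them had 0 counts in every library. In whole root tips, fewer cells of a type and less RNA per cell cannot be told apart.

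Between the genotypes, 8 of the 10 iron acquisition genes showed no difference that passed the test, and both called genes were higher in lad. All 10 passed the filter on low counts, NAS3 only through its lad libraries. At an adjusted p below 0.05 in edgeR's quasi-likelihood test, 2 of the 10 rose in lad (NAS3 and DMAS1) and 0 fell. The share called, 20%, compares with 45.2% of the 22624 genes tested, of which 24.9% were higher and 20.3% lower in lad. The libraries of the genotypes did not overlap for the same 2 genes, against 56.8% of all tested genes. The median log2 change of the 10 genes was 0.04 and that of all tested genes 0.02. The count of calls depended on single libraries: 1 gene was higher without J10 replicate 2 or 3 or without lad replicate 2 or 3, 3 were higher without J10 replicate 1, and 3 were lower without J10 replicate 2 and 2 without lad replicate 2.

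**Figure D1:**
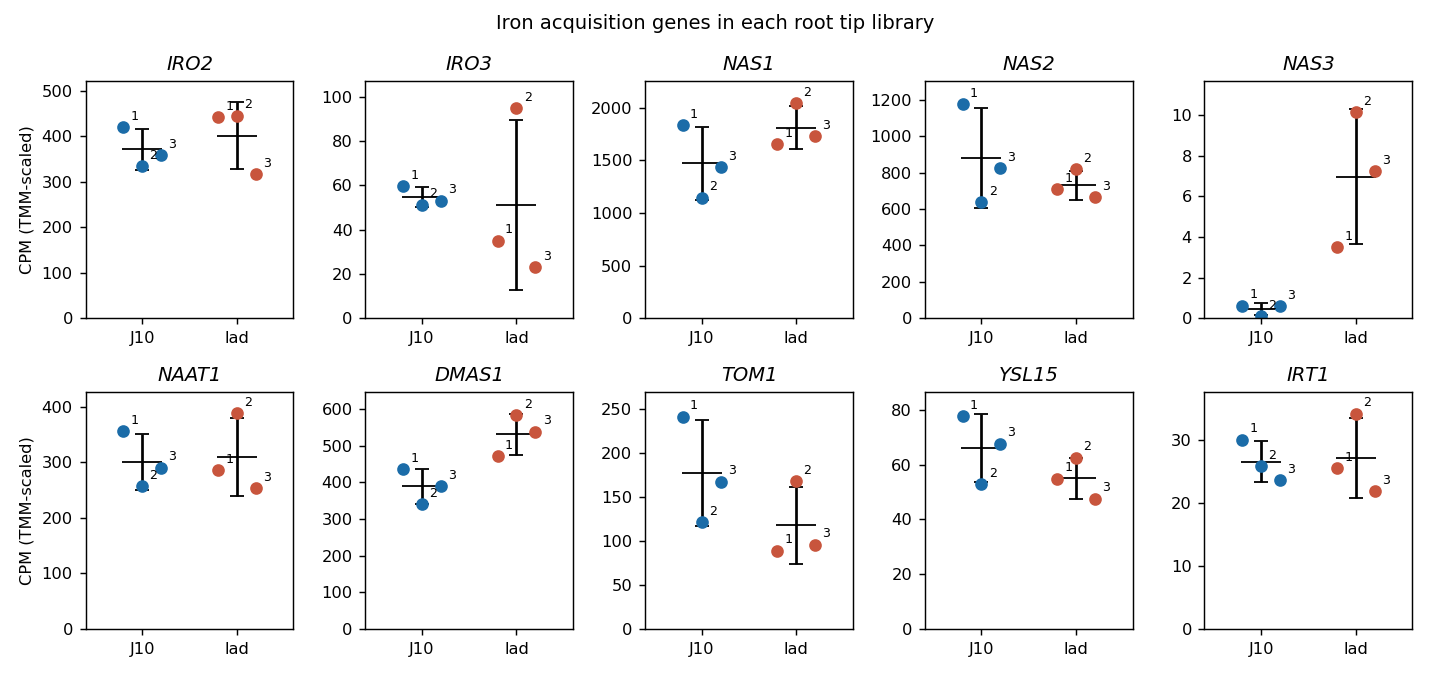
Level of each iron acquisition gene (vertical axes, TMM-scaled CPM, each starting at 0) in the 3 J10 and 3 lad libraries, with replicate numbers beside the points and bars for the mean and SD. NAS3 and DMAS1 are higher in all 3 lad libraries than in any J10 library, and the points marked 1 in J10 and 2 in lad are the highest of their genotype in every panel.

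**Figure D2:**
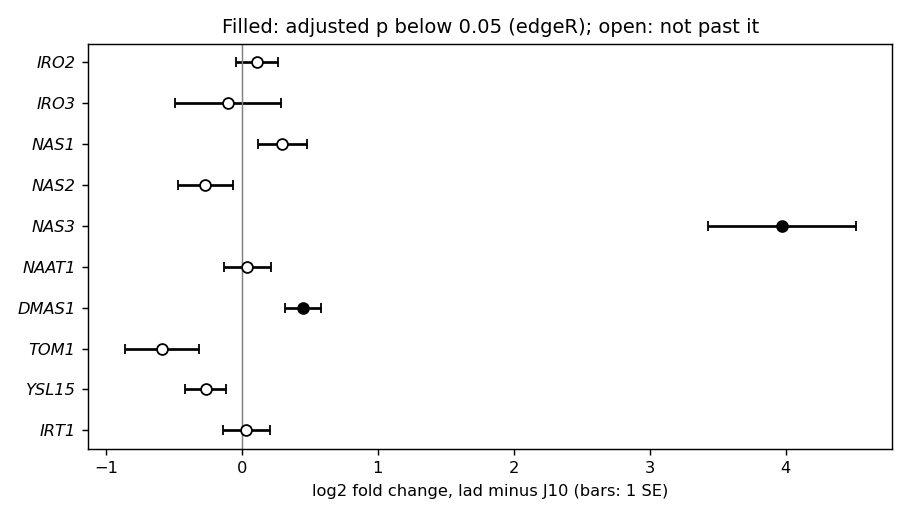
Log2 fold change of each gene, lad minus J10 (horizontal axis), with bars of 1 standard error. NAS3 at 3.97 and DMAS1 at 0.45 are the filled points, which passed the adjusted p threshold of 0.05, and the other genes lie between -0.59 and 0.30.

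The regulators showed no difference that passed the test. IRO2 (LOC_Os01g72370, chromosome 1, 41971444 to 41978408, minus strand) measured 419.6, 334 and 358 CPM in J10 replicates 1, 2 and 3, and 442, 445 and 316 CPM in lad replicates 1, 2 and 3. The lad range spanned the whole J10 range, from means of 371 ± 44.1 and 401 ± 73.5 CPM, and the log2 change was 0.11 ± 0.15 (SE; edgeR, adjusted p = 0.576). The locus shares 1039 bases with LOC_Os01g72360 on the opposite strand, which had 0 counts in every library.

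IRO3 (LOC_Os03g26210, chromosome 3, 15000062 to 15002205, plus strand) was the most uneven gene of the set in the mutant. It measured 59.9, 51.4 and 53.2 CPM in J10, but 35.1, 95.1 and 23.2 CPM in lad. Replicate 2 of lad thus lay above all J10 libraries and replicates 1 and 3 below them, a 4.10-fold range within one genotype. The means were 54.8 ± 4.47 and 51.1 ± 38.5 CPM and the log2 change was -0.10 ± 0.39 (edgeR, adjusted p = 0.851). Without lad replicate 2 it was -0.91 and passed (edgeR, adjusted p = 0.00199). The sign turned without lad replicate 1, at 0.11, and without lad replicate 3, at 0.25 (edgeR, adjusted p = 0.870 and 0.590). Leaving out 1 lad library thus changed either the call or the sign.

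Of the nicotianamine synthases, the scarce NAS3 rose and the abundant NAS1 and NAS2 did not pass the test. NAS3 (LOC_Os07g48980, chromosome 7, 29323094 to 29324723, plus strand) had 12, 2 and 11 counts in J10 and 65, 171 and 140 in lad, which correspond to 0.617, 0.105 and 0.594 CPM and to 3.52, 10.2 and 7.25 CPM. Every lad library was above every J10 library, and NAS3 passed the filter on low counts only through the lad libraries. The means were 0.439 ± 0.290 and 6.98 ± 3.33 CPM, and the log2 change of 3.97 ± 0.54, a 15.7-fold rise, passed the test (edgeR, adjusted p = 0.000210). It stayed between 3.49 and 4.29 when any 1 library was left out.

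NAS1 and NAS2 lie 1532 bases apart on chromosome 3 and are transcribed towards each other. NAS1 (LOC_Os03g19427, 10929483 to 10930895, minus strand) measured 1834, 1146 and 1435 CPM in J10 and 1659, 2043 and 1729 CPM in lad, and the groups overlapped. Its log2 change was 0.30 ± 0.18 (edgeR, adjusted p = 0.201), and 0.46 without J10 replicate 1, where it passed (edgeR, adjusted p = 0.0359). NAS2 (LOC_Os03g19420, 10926469 to 10927950, plus strand) measured 1178, 637 and 826 CPM in J10 and 708, 818 and 665 CPM in lad, so that all 3 lad values fell inside the J10 range. Its log2 change was -0.27 ± 0.20 (edgeR, adjusted p = 0.300), and -0.48 without J10 replicate 2, where it passed (edgeR, adjusted p = 0.0417). How the authors counted reads that match more than 1 synthase gene is unknown here, so the split between these near neighbours is uncertain. Summed over both loci, the level was 2352 ± 619 CPM in J10 and 2541 ± 277 CPM in lad, with a log2 change of 0.11 ± 0.19 (edgeR, adjusted p = 0.667). The genes described as nicotianamine synthase in the table are these 3 and LOC_Os05g16840, which had 0 counts.

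Of the enzymes that follow nicotianamine, DMAS1 rose and NAAT1 did not pass the test. NAAT1, the aminotransferase (LOC_Os02g20360, chromosome 2, 11997094 to 12002633, minus strand), measured 356, 256 and 290.2 CPM in J10 and 285, 388 and 254 CPM in lad. The groups overlapped, with means of 301 ± 50.4 and 309 ± 70.1 CPM, and the log2 change of 0.04 ± 0.17 (edgeR, adjusted p = 0.874) turned to -0.02 with upper-quartile scaling. DMAS1, the reductase that completes deoxymugineic acid (LOC_Os03g13390, chromosome 3, 7228964 to 7231749, plus strand), measured 436, 340.0 and 389.7 CPM in J10 and 471, 582 and 538 CPM in lad. Its lowest lad library was above its highest J10 library. DMAS1 rose from 389 ± 48.1 to 530.3 ± 56.2 CPM, a log2 change of 0.45 ± 0.13 (edgeR, adjusted p = 0.0191). The direction held when any 1 library was left out, with values from 0.34 to 0.53. The call was lost without J10 replicate 2 or 3 (edgeR, adjusted p = 0.0689 and 0.1001) and without lad replicate 2 or 3 (edgeR, adjusted p = 0.0672 and 0.0560).

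None of the transporters passed the test, and TOM1 came nearest. TOM1, which exports deoxymugineic acid (LOC_Os11g04020, chromosome 11, 1618494 to 1623978, minus strand), measured 242, 122 and 168 CPM in J10 and 89.1, 168 and 95.9 CPM in lad. Replicates 1 and 3 of lad were below all J10 libraries, while lad replicate 2 was level with J10 replicate 3. The means were 177 ± 60.4 and 118 ± 43.9 CPM and the log2 change was -0.59 ± 0.27 (edgeR, adjusted p = 0.1001). It passed without J10 replicate 2 (-0.82; edgeR, adjusted p = 0.0233), without lad replicate 2 (-0.94; edgeR, adjusted p = 0.00916) and when low-count genes were kept in the test (edgeR, adjusted p = 0.0365).

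YSL15, the importer of the ferric complex (LOC_Os02g43410, chromosome 2, 26200013 to 26204720, minus strand), measured 77.9, 53.0 and 67.7 CPM in J10 and 54.9, 62.6 and 47.6 CPM in lad. The groups overlapped, and the log2 change was -0.27 ± 0.15 (edgeR, adjusted p = 0.178). Without J10 replicate 2 it was -0.42 and passed (edgeR, adjusted p = 0.0336). IRT1, the ferrous iron transporter (LOC_Os03g46470, chromosome 3, 26286156 to 26292023, minus strand), measured 30.03, 25.8 and 23.7 CPM in J10 and 25.5, 34.2 and 21.8 CPM in lad. The lad libraries enclosed the J10 range, and the log2 change of 0.03 ± 0.17 (edgeR, adjusted p = 0.889) turned to -0.02 with upper-quartile scaling. IRT1 shares 1022 bases with LOC_Os03g46460 on the opposite strand, which had 161 to 225 counts per library. Whether reads were counted by strand is unknown here, so reads of these 2 loci cannot be told apart where they overlap.

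Neighbouring loci with the same domains as the transporters gave other values, and were singled out after their values were seen. LOC_Os11g04030, which like TOM1 is described by the major facilitator superfamily and lies 2495 bases from it, was lower in lad, at 2.91 ± 0.396 against 7.08 ± 1.92 CPM, with a log2 change of -1.29 ± 0.26 (edgeR, adjusted p = 0.00270). LOC_Os03g46454, a zinc/iron permease gene like IRT1 and 8949 bases from it, rose from 6.46 ± 1.63 to 15.8 ± 8.96 CPM, a log2 change of 1.29 ± 0.36 (edgeR, adjusted p = 0.0143). Its call was lost without J10 replicate 3 (edgeR, adjusted p = 0.0525) and without lad replicate 2, where the change was 0.74 (edgeR, adjusted p = 0.0515). LOC_Os02g43370, of the OPT superfamily like YSL15, measured 222, 169 and 192 CPM in J10 and 303, 427 and 161 CPM in lad, and did not pass (log2 change 0.61 ± 0.28; edgeR, adjusted p = 0.0930). It passed without lad replicate 3 (0.91; edgeR, adjusted p = 0.00426) and when low-count genes were kept (edgeR, adjusted p = 0.0355).

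Per kilobase of the deposited gene length, nicotianamine synthase transcripts were the most abundant of the set and NAS3 the least. In J10 the order of levels in CPM per kb was NAS1 at 1042 ± 244, NAS2 at 594 ± 185, DMAS1 at 260.5 ± 32.2, NAAT1 at 150.0 ± 25.1, TOM1 at 94.4 ± 32.2, IRO2 at 79.9 ± 9.497, IRO3 at 40.4 ± 3.29, YSL15 at 23.9 ± 4.52, IRT1 at 17.6 ± 2.14 and NAS3 at 0.269 ± 0.178. Neighbours in this order whose J10 libraries overlapped were NAAT1 with TOM1, TOM1 with IRO2, and YSL15 with IRT1. In lad, IRO2 at 86.5 ± 15.8 CPM per kb stood before TOM1 at 62.8 ± 23.4, and the other means kept the order of J10. The lad libraries overlapped between IRO2 and TOM1, TOM1 and IRO3, IRO3 and YSL15, and YSL15 and IRT1, so the order from IRO2 to IRT1 is not resolved there. There NAS1 reached 1281 ± 145, NAS2 493 ± 53.2 and DMAS1 355 ± 37.7 CPM per kb. The deposited length of IRO2, 4639 bases, is the longest of the set, and a shorter transcript would raise its level per kb.

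Within each genotype, the same library was the highest for all 10 genes. Replicate 1 was the highest J10 library for all 10 genes, against 39.6% of all tested genes, and replicate 2 was the lowest for 9 of 10, against 38.5%. For NAS3 the top J10 rank rests on 12 counts in replicate 1 against 11 in replicate 3. In lad, replicate 2 was the highest library for all 10, against 32.3% of tested genes, while the lowest was replicate 3 for 6 genes and replicate 1 for 4. Both held at once for 10 of 10 genes and for 8.27% of tested genes. With scaling by library totals, lad replicate 1 took the place of replicate 2 for IRO2, which left 9 of 10, and the share of all genes was 10.7%. These ranks were examined after the values had been seen.

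As a size, the median deviation of the 10 genes from their genotype mean was 0.25 in J10 replicate 1, -0.26 in J10 replicate 2 and 0.27 in lad replicate 2, on the log2 scale. The median over all tested genes lay between -0.01 and 0.02 in each library. Leaving out NAS3, whose counts are low, the highest library exceeded the lowest by a median of 1.39-fold in J10 and 1.41-fold in lad over 9 genes, against 1.20-fold and 1.19-fold over the 9853 genes with a mean of at least 20 CPM. Markers moved with these libraries too, in part. The median of the differentiated root markers was 0.35 in J10 replicate 1 and -0.44 in J10 replicate 2, the direction of the iron genes, but -0.22 in lad replicate 2, the opposite direction. The median of the meristem markers was -0.05 in J10 replicate 1 and 0.25 in lad replicate 2. Lad replicate 2 was also the library with the fewest counts, 16405022. In J10, replicate 1 held 19242573 counts, between 19030866 in replicate 3 and 20693114 in replicate 2. The part of tissue makeup or depth in the shared pattern was not tested.

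**Figure D3:**
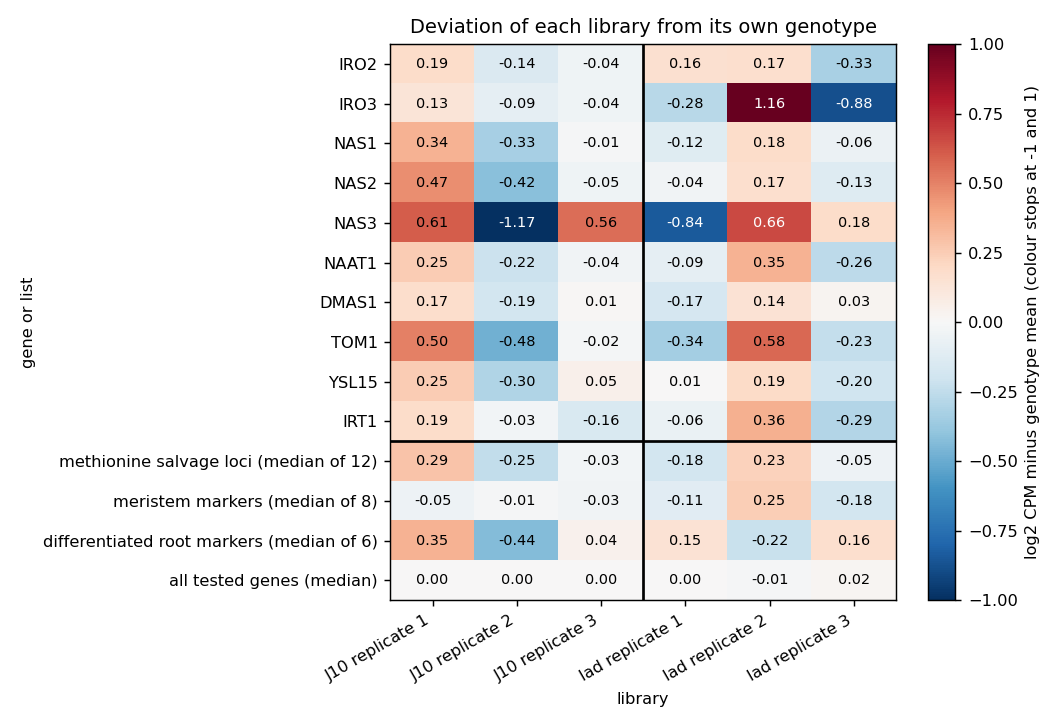
Deviation of log2 CPM from the mean of the library's own genotype (colour and printed value) for each iron gene, and as a median for the methionine salvage loci, the marker lists and all tested genes; columns are the 6 libraries. Each iron gene and the salvage median lie above the genotype mean in J10 replicate 1 and lad replicate 2. There the salvage median is 0.29 and 0.23.

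Ratios between genes of the set within a library were also compared. The shared shifts differed in size between genes, at 1.16 for IRO3, 0.58 for TOM1 and 0.14 for DMAS1 in lad replicate 2 on the log2 scale, so a ratio does not remove them in full. These pairs were not planned, and a two-sided exact permutation test of 3 against 3 libraries cannot give a p below 0.1. The ratio of NAS1 to NAS2 was 1.56, 1.80 and 1.74 in J10 and 2.34, 2.497 and 2.60 in lad, with no overlap (exact permutation p = 0.1), and was 1.46-fold higher in lad. The ratio of NAAT1 to DMAS1 was 0.745 to 0.815 in J10 and 0.472 to 0.666 in lad, and that of DMAS1 to TOM1 was 1.81 to 2.79 in J10 and 3.46 to 5.61 in lad. Of the 36 pairs without NAS3, 12 (33.3%) did not overlap between the genotypes. Neither did any of the 9 pairs with NAS3, which repeat its own lack of overlap. Over all pairs of tested genes the share was 57.6%, so a lack of overlap in the pairs is no mark of this set.

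**Figure D4:**
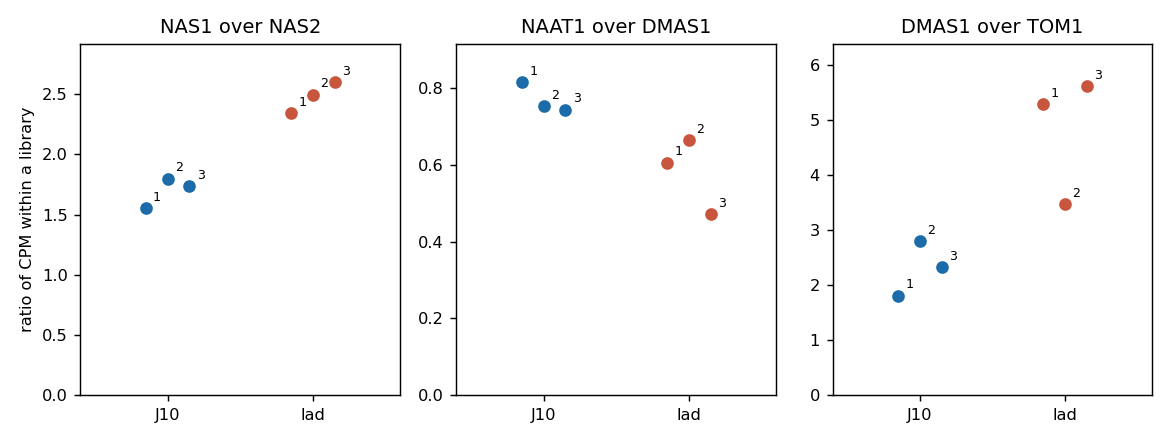
Ratio of the CPM of 2 genes within each library (vertical axes start at 0), with replicate numbers. The NAS1 to NAS2 ratio lies between 1.56 and 1.80 in J10 and between 2.34 and 2.60 in lad.

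Other genes of the pathway changed in part. Nicotianamine synthesis uses S-adenosylmethionine, and the methionine salvage cycle recovers the by-product. Of 12 loci listed for this cycle, 3 rose, 0 fell and 9 did not pass (median log2 change 0.15). Each list count here and below stands against 24.9% higher and 20.3% lower over all tested genes. The acireductone dioxygenase gene LOC_Os03g06620 rose from 209.8 ± 41.0 to 295 ± 49.5 CPM (log2 change 0.49; edgeR, adjusted p = 0.0317). This call was lost without J10 replicate 2 or 3 (edgeR, adjusted p = 0.113 and 0.133), without lad replicate 2 or 3 (edgeR, adjusted p = 0.115 and 0.0601) and with upper-quartile scaling (edgeR, adjusted p = 0.0561). LOC_Os04g57410, with only the domain label APH, rose from 23.1 ± 4.76 to 42.1 ± 2.42 CPM (edgeR, adjusted p = 0.000973). The remaining higher locus, LOC_Os06g29220, was chosen after its values were seen. Its description, D-isomer specific 2-hydroxyacid dehydrogenase, does not by itself place it in the cycle. The locus had 1 count over all J10 libraries, in replicate 1, and 445 over the lad libraries. The ratio was 465, with a 95% exact interval from 83.0 to 18408 that covers counting error only, not the spread between libraries. LOC_Os06g29220 passed the filter on low counts only through the lad libraries. By library, 10 of the 12 salvage loci were highest in both J10 replicate 1 and lad replicate 2, as all 10 iron acquisition genes were. Among other iron lists it held for 9 of 19 transport loci, 3 of 10 regulators and 1 of 14 ZIP genes other than IRT1. It held for 0 of 4 storage loci, 0 of 8 ferric reductase domain genes, 2 of 9 NRAMP genes and 2 of 13 iron-sulphur genes. Of 83 genes described as oligopeptide transporters, YSL15 left out, it held for 15. Over all tested genes the share was 8.27%. Among the salvage loci, an example picked after the values were seen is LOC_Os11g29370, of the Aldolase_II domain. This gene measured 946, 611 and 735 CPM in J10 and 706, 1044 and 789.9 CPM in lad.

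Among 10 loci listed as regulators of the iron response, 5 were called higher and 0 lower (median log2 change 0.42). The shares over all tested genes were 24.9% and 20.3%. LOC_Os05g38140, a bHLH gene, rose from 53.5 ± 9.77 to 117 ± 20.5 CPM (edgeR, adjusted p = 0.000254), and LOC_Os07g04910, which carries no description, from 2.15 ± 0.610 to 18.9 ± 3.57 CPM (edgeR, adjusted p = 4.59e-06). LOC_Os01g45914, also without a description and singled out after its values were seen, measured 141, 153 and 151 CPM in J10 and 114, 319.8 and 101 CPM in lad, so that lad replicate 2 stood far above the others as it did for IRO3. Its log2 change was 0.27 (edgeR, adjusted p = 0.566), and -0.46 without lad replicate 2 (edgeR, adjusted p = 0.0110).

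Of 4 loci listed for iron storage 3 fell and 1 rose (median log2 change -0.78), against 20.3% lower and 24.9% higher over all tested genes. Both genes described by a ferritin domain, the iron store of plastids, fell. LOC_Os11g01530 measured 36.5, 37.2 and 30.04 CPM in J10 and 13.1, 16.3 and 21.8 CPM in lad (log2 change -1.02 ± 0.18; edgeR, adjusted p = 0.00108), and LOC_Os12g01530 went from 31.8 ± 1.85 to 20.9 ± 4.53 CPM (-0.61 ± 0.16; edgeR, adjusted p = 0.00952). The 2 listed loci with a DUF125 domain moved in opposite directions. LOC_Os04g38940 fell from 45.5 ± 5.26 to 23.6 ± 1.91 CPM (edgeR, adjusted p = 0.000157), and LOC_Os09g23300 rose from 3.73 ± 0.618 to 26.0 ± 5.57 CPM (edgeR, adjusted p = 2.95e-06).

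Of 19 tested loci listed for iron and metal transport, 8 rose and 2 fell (median log2 change 0.61). LOC_Os03g37490 and LOC_Os03g37640, described as multi antimicrobial extrusion proteins, both rose, the first from 2.15 ± 0.657 to 9.08 ± 1.03 CPM and the second from 10.7 ± 1.73 to 24.2 ± 1.44 CPM (edgeR, adjusted p = 0.000139 and 0.000165). The lower ones were LOC_Os11g04030, given above, and LOC_Os02g42220, of the OPT superfamily, which fell from 13.5 ± 2.94 to 8.95 ± 0.454 CPM (log2 change -0.59; edgeR, adjusted p = 0.0284). The latter call was lost with library totals (edgeR, adjusted p = 0.0750) and without J10 replicate 1 or 3 or any 1 lad replicate (edgeR, adjusted p from 0.0584 to 0.0941).

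By family, 9 of 15 tested zinc/iron permease (ZIP) genes rose and 1 fell, IRT1 being among the 5 that did not pass, with a median of 0.68. LOC_Os05g10940 rose from 6.16 ± 0.702 to 16.7 ± 1.39 CPM (edgeR, adjusted p = 6.76e-05) and LOC_Os05g39560 from 2.92 ± 0.459 to 10.6 ± 3.57 CPM (edgeR, adjusted p = 0.000481). LOC_Os08g01030 fell from 24.6 ± 2.79 to 16.0 ± 5.31 CPM (edgeR, adjusted p = 0.0334), a call lost without J10 replicate 3 (edgeR, adjusted p = 0.0857), without lad replicate 1 or 2 (edgeR, adjusted p = 0.126 and 0.0916) and with library totals (edgeR, adjusted p = 0.0731). Of 9 NRAMP genes, a family of divalent metal transporters, 3 rose and 0 fell (median 0.36), among them LOC_Os06g46310 from 57.4 ± 10.6 to 113 ± 6.17 CPM and LOC_Os02g03900 from 34.1 ± 3.03 to 70.5 ± 17.1 CPM (edgeR, adjusted p = 0.000201 and 0.000611). Of 23 OPT superfamily genes, which include the yellow stripe-like transporters, 8 rose and 1 fell (median 0.37), among them LOC_Os04g44320 from 4.95 ± 0.656 to 15.9 ± 3.30 CPM and LOC_Os06g03560 from 5.81 ± 0.934 to 14.8 ± 1.54 CPM (edgeR, adjusted p = 9.60e-05 and 0.000200). The text pattern for that family also matched the separate proton-dependent oligopeptide transporters, and over all 84 tested matches 41 rose and 4 fell (median 0.70); LOC_Os06g49250 and LOC_Os06g13210 rose and LOC_Os11g17970 and LOC_Os04g59480 fell, with log2 changes of 3.23, 1.80, -1.35 and -0.81 (edgeR, adjusted p from 1.08e-05 to 0.00673).

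Of 8 tested genes with a ferric reductase domain, a domain that respiratory burst oxidases also carry, 5 rose and 0 fell (median 0.60). The domain alone does not tell such oxidases from iron reductases, so these are not counts of iron reductases. LOC_Os11g33120 rose from 42.4 ± 7.04 to 129.9 ± 25.2 CPM and LOC_Os09g26660 from 35.2 ± 8.38 to 100.2 ± 10.3 CPM (edgeR, adjusted p = 2.79e-05 and 4.15e-05). Of 13 genes for iron-sulphur cluster assembly, which consumes iron, 4 rose and 0 fell (median 0.03), among them LOC_Os06g05400 from 13.6 ± 0.926 to 26.9 ± 3.35 CPM and LOC_Os11g07916 from 21.8 ± 1.22 to 34.6 ± 5.42 CPM (edgeR, adjusted p = 0.000295 and 0.00257). These lists share members, and against the background of 24.9% higher and 20.3% lower over all tested genes their counts are a description only.

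**Figure D5:**
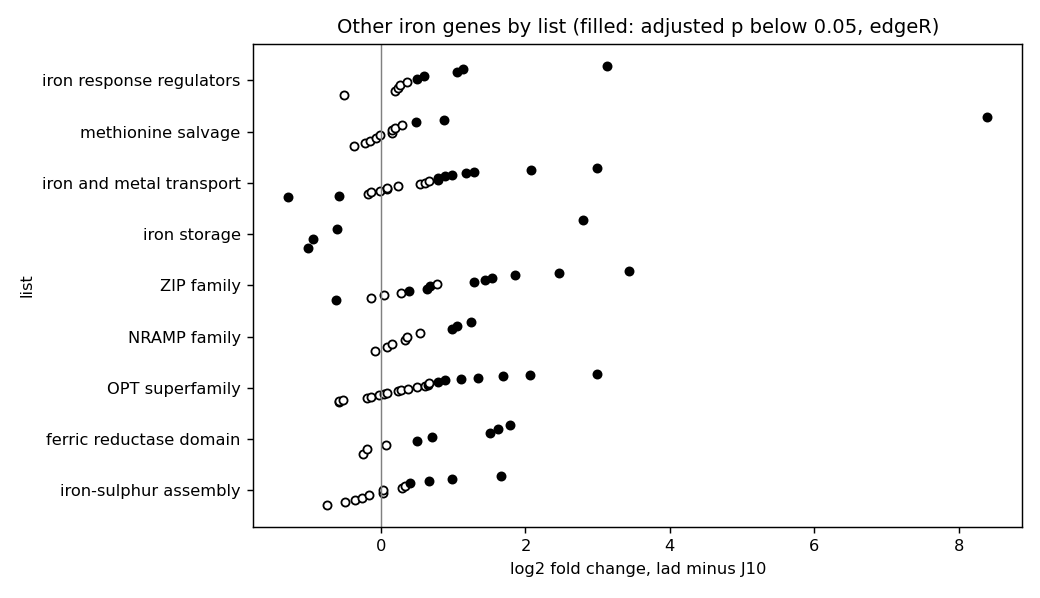
Log2 fold change, lad minus J10 (horizontal axis), of each tested gene in the other iron lists, without the 10 iron acquisition genes; filled points passed an adjusted p of 0.05. The iron storage list has 3 filled points below 0 and 1 above; the salvage point at 8.40 is LOC_Os06g29220, whose fitted value depends on the prior count because J10 held 1 count.

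The genes with a description whose levels followed IRO2 most closely over the 6 libraries were LOC_Os04g47220, a major intrinsic protein gene (Pearson r = 0.997 on log2 CPM), LOC_Os11g37300, with an F-box domain (r = 0.988), and LOC_Os09g27900, a sugar transporter-like gene of the major facilitator class (r = 0.975). LOC_Os04g47220 measured 222, 207, 212, 226, 226 and 206 CPM in J10 replicates 1, 2 and 3 and lad replicates 1, 2 and 3, a much narrower range than that of IRO2. With 6 libraries, and each library's depth and scaling common to all genes, these are descriptions of the closest values among all tested genes.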

How the data were processed

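RNA-seq of 3 J10 and 3 lad root tip samples was analysed, with groups and replicate numbers from the sample titles. Per the labels' protocols, Trizol and an Illumina TruSeq kit were used to make libraries from total RNA. The authors deposited read counts per gene, whole numbers that sum to another total in each library, together with gene length, locus coordinates and domain descriptions. Bowtie 0.12.2 appears in the submitters' processing notes beside mm8 and mm9, which are mouse builds and cannot be those of rice loci; the counter, its strand setting, the annotation and the rice build were not found in the labels or headers, and coordinates are printed as deposited. No identifier matched the RefSeq gene table (0 of 39387 genes), and sequences were not used here. Replicates of a genotype differed by more than sampling error (chi-square over its degrees of freedom 9.44 to 31.8), so all 6 were kept as separate samples.

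Counts were fitted with edgeR 4.0.16 (R 4.3.3): edgeR's expression filter by genotype, which left 22624 genes, TMM and a two-sided quasi-likelihood test of genotype with no other term. P-values were adjusted by Benjamini-Hochberg across these genes, and 0.05 was the threshold. The procedure was tested on simulated data. Standard errors were derived from the log2 change and the F statistic. Log2 CPM used a prior count of 2. The alternatives were other scalings and filters, DESeq2 1.42.0, limma 3.58.1 (voom), a replicate block, leaving out each library, and summing NAS1 with NAS2.

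The 10 genes and all lists were chosen with earlier results of these data known. From each of the other lists, up to 2 higher and 2 lower genes ranked by adjusted p among those averaging 5 CPM or more are named by locus, and 3 described genes most like IRO2; others named are marked as chosen after their values were seen. Patterns for VIT/CCC1 and seed storage genes, searched only in the deposited descriptions, matched 0 genes. This does not show that no such gene is among the loci listed by number. Loci in lists were taken from general knowledge of rice.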

Additional observations from a re-analysis of the deposited data

How the results depend on the processing

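NAS3 kept its direction and its call in all 14 alternative fits, with log2 changes from 3.87 to 4.09 over the 8 changes of scaling, filter or test and from 3.49 to 4.29 over the 6 fits that left out 1 library. All these fits reuse the same counts, and in the main fit NAS3 passed the low-count filter only through its lad libraries. DMAS1 kept its direction in the same fits, and its call in the 8, but not when J10 replicate 2 or 3 or lad replicate 2 or 3 was left out (0.34 to 0.53 over the 6). With genes of low counts kept in the test, TOM1 passed at -0.59, which made 1 lower gene in place of 0; the cause was not tested. With upper-quartile factors NAAT1 turned to -0.0186 and IRT1 to -0.0238. Leaving out 1 library gave log2 changes from -0.91 to 0.25 for IRO3, 0.02 to 0.26 for IRO2, 0.13 to 0.46 for NAS1, -0.48 to -0.0346 for NAS2, -0.16 to 0.16 for NAAT1, -0.94 to -0.33 for TOM1, -0.42 to -0.17 for YSL15 and -0.17 to 0.17 for IRT1, and left 1 to 3 of the 10 genes higher and 0 to 3 lower. Over all tested genes, 4444 to 5956 were then higher and 3360 to 5235 lower. The other iron lists held 75 higher and 9 lower of 161 genes, with 61 to 79 and 6 to 12 when 1 library was left out. These counts include the proton-dependent oligopeptide transporters, a separate family that the text pattern also matched. They also include the tested genes with a ferric reductase domain, which need not be iron reductases. Over all tested genes, 24.9% were higher and 20.3% lower.

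The replicate numbers did not meet the rule set for pairing, that all 3 correlations exceed 0.1. Deviations from the genotype mean correlated at 0.06, 0.13 and -0.03 across genes for the libraries numbered 1, 2 and 3. Only the second of these exceeded 0.1. Lad replicates 1 and 2 correlated best with the J10 library of the same number, and lad replicate 3 with J10 replicate 1. With the replicate number as a block, NAS3 stood at 3.87, DMAS1 at 0.45, TOM1 at -0.60 and IRO3 at -0.35, with 2 genes higher and 0 lower as without it. Depth limits the J10 level of NAS3, which rests on 2 to 12 counts per library.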
